A study of Homo sapiens with 14 samples.

Results

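The transcription factor genes PAX2, TLX1 and LBX1 are neighbours on the long arm of human chromosome 10, and the peaks described here are those between 102.38 and 103.02 Mb of hg19. They were chosen by position, as every peak of any of the 14 deposited lists in that stretch of 640 kb, with earlier results of these lists known. There are 257 such peaks among 227479 in all lists. PAX2 was placed at 102.505 to 102.59 Mb, TLX1 near 102.89 Mb and LBX1 near 102.99 Mb. The last 2 positions are given to 10 kb only, and no hg19 gene annotation was used, so exons, introns and start sites were not assigned.

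The data are chromatin immunoprecipitation sequencing (ChIP-seq) peak lists from DU145 cells, an established line of human prostate cancer, under puromycin selection. Control cells carried a scramble construct, labelled Scr. Knockdown cells carried a stable EED knockdown, labelled sh3 in every title. With 1 construct, what it does through EED and what it may do otherwise cannot be told apart. Antibodies against EED, RING1A, RING1B, BMI1 and H3K27me3, and a rabbit and a mouse antibody against ubiquitylated histone H2A (uH2A), were each used once in each cell line. With 1 library per group no difference has a replicate check and no p-value between conditions exists. Intervals are 95% intervals for counting error only, and they treat peaks as independent although neighbouring peaks share a domain and a library. The depth of the libraries is unknown, since the lists hold peaks and no read totals, and the numbers of peaks limit the precision.

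Polycomb repressive complex 2, of which EED is a core subunit, places trimethylation on lysine 27 of histone H3 (H3K27me3), and EED also binds that mark. Polycomb repressive complex 1 ubiquitylates histone H2A through RING1A or RING1B, with BMI1 as a partner of these ligases. Genes for developmental transcription factors are typical Polycomb targets in differentiated cells, where the mark often spreads over broad domains. PAX2 is a paired-box factor of kidney, urogenital tract and eye development. TLX1, also called HOX11, is a homeobox factor needed to form the spleen and is activated by translocations in T-cell leukaemia. LBX1 is a homeobox factor of migrating limb muscle precursors and of dorsal spinal cord neurons.

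CpG-rich promoter DNA is a usual place for Polycomb complexes, so the promoters of the genes are shown with each CpG in capitals. The RefSeq promoter table, of build GRCh38.p14, matched 2 of the 3 genes by symbol, with windows of 300 bases. These positions belong to another build than the peaks and were not converted. The first 2 windows belong to alternative starts of PAX2, at chr10:100735146-100735445 and chr10:100745332-100745631 of GRCh38.p14, both on the plus strand. That of TLX1 is at chr10:101131050-101131349, also on the plus strand.
PAX2 upstream start: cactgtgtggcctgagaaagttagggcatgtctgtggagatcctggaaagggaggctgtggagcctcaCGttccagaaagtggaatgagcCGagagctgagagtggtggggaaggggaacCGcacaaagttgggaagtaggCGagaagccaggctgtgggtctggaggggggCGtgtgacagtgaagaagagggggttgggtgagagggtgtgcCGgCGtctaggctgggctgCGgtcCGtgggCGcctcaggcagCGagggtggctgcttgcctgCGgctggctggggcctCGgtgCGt
PAX2 downstream start: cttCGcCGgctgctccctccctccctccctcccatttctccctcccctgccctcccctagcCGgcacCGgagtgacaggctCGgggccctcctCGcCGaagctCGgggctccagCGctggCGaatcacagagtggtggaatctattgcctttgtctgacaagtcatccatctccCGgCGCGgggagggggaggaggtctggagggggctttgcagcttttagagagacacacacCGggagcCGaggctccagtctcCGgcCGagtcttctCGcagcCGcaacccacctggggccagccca
TLX1: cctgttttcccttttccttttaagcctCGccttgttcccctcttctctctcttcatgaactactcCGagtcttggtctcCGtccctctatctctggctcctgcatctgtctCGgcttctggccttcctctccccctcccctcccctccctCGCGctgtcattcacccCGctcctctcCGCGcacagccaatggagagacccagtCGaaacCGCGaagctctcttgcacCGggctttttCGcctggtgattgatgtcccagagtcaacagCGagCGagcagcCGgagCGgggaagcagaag

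The windows hold 14 and 19 CpG for PAX2 and 18 for TLX1, against a median of 14 over 35116 promoters of the table. At least as many were found in 50.3%, 42.9% and 44.5% of all promoters. The G and C content is 63.7% and 66.7% for PAX2 and 59.0% for TLX1, with a median of 58.7%. By these counts none of the 3 windows stood far from the middle of the table. The TLX1 window shares 253 bases with a promoter of TLX1NB, a non-coding gene read from the opposite strand.

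H3K27me3 was the main mark of the stretch in control cells and had no peak there in knockdown cells. It had 136 control peaks covering 76.9 kb, 12.0% of the stretch, and 0 knockdown peaks. All other antibodies together had 108 control peaks. The uH2A rabbit antibody had 36 control and 12 knockdown peaks, and the uH2A mouse antibody 30 and 1. RING1A had 33 and 0, EED 8 and 0, and BMI1 1 and 0. RING1B, the other ubiquitin ligase, had 0 in both cell lines, and its nearest control peak to the left lay 3087.6 kb outside. Its whole lists were short, with 5155 control and 1739 knockdown peaks, where the RING1A control list held 56011. The lack of RING1B peaks is therefore not shown to be particular to the stretch, and these numbers do not rank the antibodies. In all, 244 control and 13 knockdown peaks were listed, and 4 of the 6 antibodies with control peaks had none after the knockdown.

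**Figure D1:**
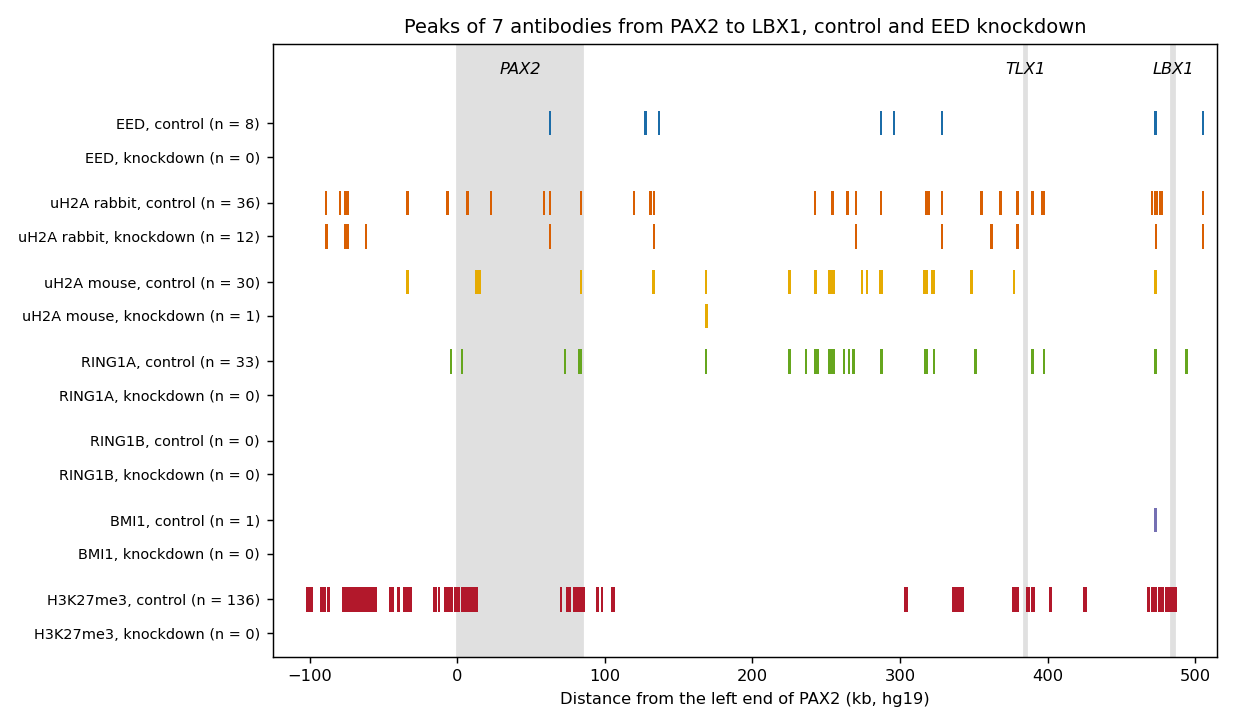
Each bar is a peak, by distance in kb from the left end of PAX2 (horizontal axis) and by antibody and cell line (rows, with the number of peaks), short peaks being widened to be visible. Grey bands mark the gene positions. The 136 control H3K27me3 peaks gather at and to the left of PAX2 and around TLX1 and LBX1, the mouse uH2A and RING1A peaks gather between PAX2 and TLX1, and 13 knockdown peaks are left, 12 of them of the uH2A rabbit antibody.

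The losses have to be read against the whole lists, which also shrank. The EED list fell from 13082 to 1372 peaks. Since the other lists shrank too and the depth is unknown, that fall does not check the knockdown. A control peak was called lost when it shared no base with a knockdown peak of the same antibody. Of the control H3K27me3 peaks, 136 of 136 were lost here and 96.2% in the whole list. The share kept was 0% here (Clopper-Pearson interval 0 to 2.68%) and 3.81% in the list, so the interval ends just below the list's share. At the list's share 5.18 of the 136 peaks would have been kept, and the peaks lie in 15 domains rather than apart. The control peaks here stood 3.11 to 3.70 Mb from the nearest knockdown H3K27me3 peak. Knockdown H3K27me3 peaks were few on all of chromosome 10, 65 against 1931 in control cells. The distance is therefore not shown to be unusual. For RING1A, 33 of 33 peaks were lost, against 95.9% in its list. EED lost 8 of 8, against 94.2%, with the nearest knockdown EED peak 581.1 kb away. The 1 BMI1 peak was lost, against 78.9%. The uH2A mouse antibody lost 29 of 30, against 89.3%, and the uH2A rabbit antibody 26 of 36, against 71.2%. Except for H3K27me3, each interval of the share kept includes the list's share. Loss was the common outcome in the list of each of these 6 antibodies. The EED and uH2A lists and the lists of the other 4 antibodies form 2 sets that differ in culture description and in how chromosomes are written. Every antibody with control peaks here had fewer knockdown peaks, 3 in each set.

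The amount of H3K27me3 in control cells is given without a test because the stretch was selected with these lists known. The control H3K27me3 peaks here made up 0.385% of the list by number and 0.737% by length, and 13.0% of the length covered on chromosome 10. Among the 2263 adjoining stretches of the same length across the genome that held a peak, 5 had more covered, and the median was 1700 bp. The limits of adjoining stretches fall without regard to genes or domains, whereas this stretch was drawn around its genes. That placement can favour it, so its place among them is descriptive only. Within the stretch the mark was patchy, with peaks in 27 of 64 bins of 10 kb. The peaks were long, with a median of 300 bp against 200 bp in the list. Lengths of 1 kb or more were reached by 20 of 136 peaks (14.7%), against 4.20% of the list. Their median height was 49.8 against 40.8, and 103 of 136 were at least as tall as the list's median. Height is the authors' caller's value and was not scaled between libraries.

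At the edges of the stretch the first control H3K27me3 peak inside began 22.9 kb from the left limit, and the nearest outside ended 32.8 kb before it. On the right the last peak inside ended 28.7 kb before the limit, and the next outside began 305.4 kb beyond it.

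Joining control H3K27me3 peaks with gaps of at most 5000 bp gave 15 domains, none of a single peak. No knockdown H3K27me3 peak fell in any of them. Over the whole list, 4.42% of 9488 such domains met a knockdown H3K27me3 peak. Domains with at least 5 kb covered numbered 397 in the list and 4 here, and 88.9% of the 397 met no knockdown peak, as did 4 of 4 here.

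Peaks were assigned to a gene when they lay within 50 kb of its position. The PAX2 block held 51 control H3K27me3 peaks covering 31.0 kb, the LBX1 block 15 covering 14.8 kb, and the TLX1 block 28 covering 10.1 kb. These 3 blocks hold 72.6% of the covered length. They differ in width, since PAX2 was placed over 85 kb, TLX1 and LBX1 at single positions, and the right limit cuts the LBX1 block. The covered lengths are therefore not densities. A further 40 peaks covering 18.95 kb lay to the left of the PAX2 block, over 75 kb. Between PAX2 and TLX1, 200 kb that are 31.3% of the stretch, 2 peaks covered 2.15 kb. In knockdown cells the covered length was 0 kb in each block.

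**Figure D2:**
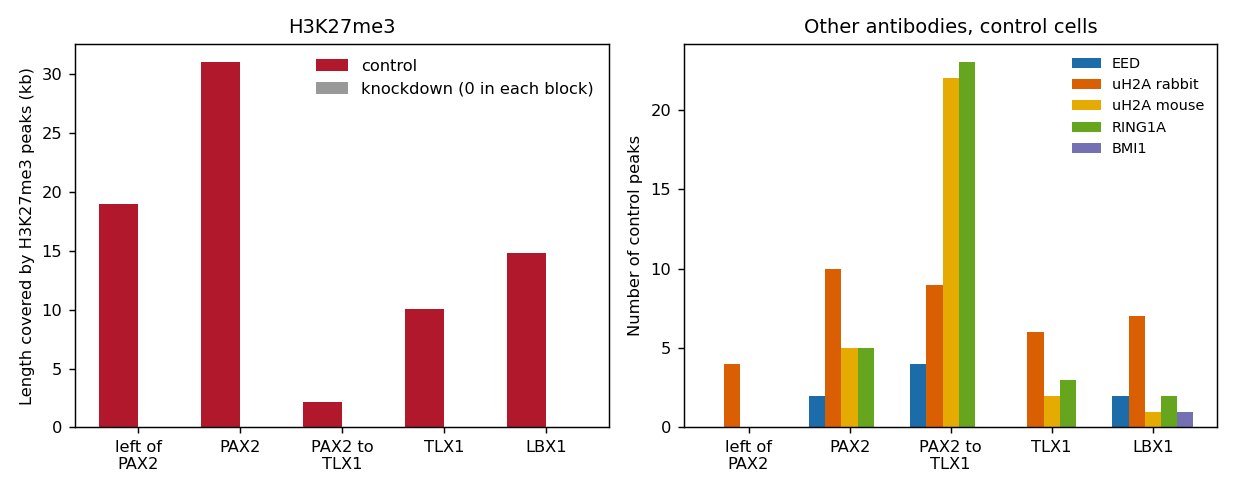
The left panel gives the length covered by H3K27me3 peaks (kb) in 5 blocks for control and knockdown cells, and the right panel the number of control peaks of 5 other antibodies in the same blocks. H3K27me3 covers 31.0 kb around PAX2 and 2.15 kb between PAX2 and TLX1, where mouse uH2A has 22 and RING1A 23 peaks.

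PAX2 carried its H3K27me3 at both ends and not in the middle. The longest domain of the stretch ran from 102488651 to 102517675 over the left end of the gene, 29.0 kb with 20 peaks covering 20.5 kb. By covered length it ranked 26 of 9488 domains in the list. It holds the tallest H3K27me3 peak of the stretch, from 102505576 to 102507075, with a height of 216.8, which is 5.32 times the list's median. It also holds the longest, of 4200 bp, from 102507351 to 102511550. The right end had a domain from 102574626 to 102590425, 15.8 kb with 12 peaks covering 5.90 kb (rank 301). Between these domains 56.95 kb of the gene, from 102517676 to 102574625, had no H3K27me3 peak. That gap held 3 uH2A rabbit, 1 uH2A mouse and 1 EED control peak, and 1 uH2A rabbit knockdown peak.

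Further left of PAX2 lay a domain from 102458701 to 102473250, 14.6 kb with 3.60 kb covered (rank 627). Beyond it another ran from 102427301 to 102449050, 21.75 kb with 29 peaks covering 13.5 kb (rank 69). The latter belongs to no gene block and covered more than all peaks of the TLX1 block.

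Other antibodies met the PAX2 domains at few places. The domain over the left end held 2 uH2A rabbit, 2 RING1A and 1 uH2A mouse peak in control cells. The domain at the right end held 3 RING1A peaks and 1 of each uH2A antibody. Within it, 4 antibodies met at 102587801 to 102588725. There H3K27me3 reached a height of 146.8, RING1A 77.2, uH2A mouse 42.2 and uH2A rabbit 33.2, where the medians of their control lists were 40.8, 58.6, 37.1 and 36.3. None of these peaks was found in knockdown cells. EED had 2 control peaks in the PAX2 block, of 75 bp each, and neither lay on H3K27me3.

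TLX1 had short H3K27me3 domains on both sides of its stated position, none with 5 kb covered. One ran from 102890651 to 102895300, beginning 0.651 kb from the position and covering 3.425 kb (rank 672). The other ran from 102880526 to 102884175 and covered 3.275 kb (rank 709), with the tallest peak of the block at a height of 102.0. Domains with less length covered began at 102840101, 102905926 and 102929001. The first of these covered 1.825 kb, the second 1.2 kb and the last 0.325 kb. By span the first was the longest domain of the block, with 6.7 kb, against 4.65 kb for the domain that begins at 102890651.

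The tallest uH2A rabbit peak of the whole stretch stood at the right edge of that second domain, from 102883651 to 102884075. Its height was 112.5 in control cells, above 98.4% of its list, and a knockdown peak of height 39.5 lay within it from 102883701 to 102883925. Within the domain that begins at 102890651, 1 RING1A and 1 uH2A rabbit peak overlapped H3K27me3, and both were lost. The domain that begins at 102880526 also held a uH2A mouse peak, which was lost. The TLX1 block had 0 EED and 0 BMI1 peaks.

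LBX1 lay at the right end of the most compact of the long domains, from 102972051 to 102991325. Its 15 peaks covered 14.8 kb of 19.3 kb, or 76.7%, and it ranked 53 of 9488. Of these peaks, 6 were 1 kb or longer, and heights reached 187.3. It was the domain met by the most antibodies, with 6 uH2A rabbit peaks and 1 each of EED, uH2A mouse, RING1A and BMI1 in control cells.

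All of these antibodies met at 1 place, 12.562 kb left of the stated LBX1 position. There the control peaks of EED, uH2A mouse, RING1A and BMI1 shared 175 bp, from 102977351 to 102977525, under an H3K27me3 peak from 102976351 to 102979175. The EED peak, from 102977326 to 102977550, was the tallest EED peak of the stretch at 41.2, against a list median of 32.4. The BMI1 peak, from 102977351 to 102977525, was the only one in the stretch, with a height of 77.0 against 67.0. RING1A reached 68.0 against 58.6, uH2A mouse 49.4 against 37.1, uH2A rabbit 103.3 against 36.3, and H3K27me3 187.3 against 40.8. In knockdown cells a uH2A rabbit peak from 102977376 to 102977650 was listed there, with a height of 61.3 against a median of 35.3. The other 5 antibodies had no knockdown peak at the place. No other site in the stretch had peaks of more than 4 antibodies.

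**Figure D3:**
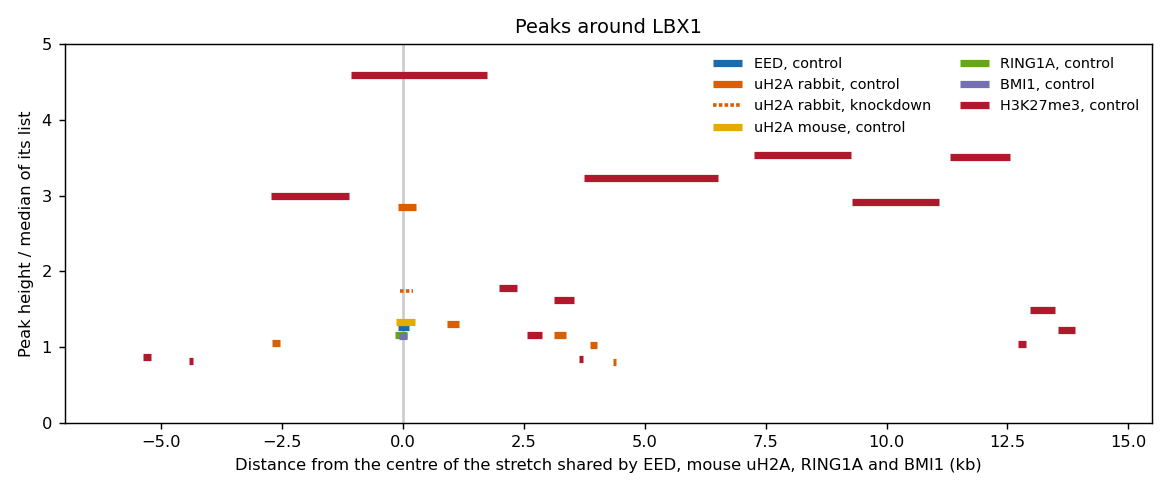
Each line is a peak around LBX1, by distance in kb from the centre of the 175 bp shared by EED, mouse uH2A, RING1A and BMI1 (horizontal axis) and by its height divided by the median of its own list (vertical axis). Thin dotted lines are knockdown peaks. The peaks of 6 antibodies are stacked at 0, and the uH2A rabbit knockdown peak is the only knockdown peak there.

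Mouse uH2A and RING1A had most of their peaks away from H3K27me3, in the 200 kb between PAX2 and TLX1. There lay 22 of 30 uH2A mouse peaks (73.3%) and 23 of 33 RING1A peaks (69.7%), with 9 of 36 uH2A rabbit and 4 of 8 EED peaks. Lying off H3K27me3 is the common case, since 4.94% of the uH2A mouse and 6.28% of the RING1A control list lay on it. In RefSeq's GRCh38.p14 order, PAX2 and TLX1 are separated by 8 protein-coding genes, SLF2, SEMA4G, MRPL43, TWNK, LZTS2, PDZD7, SFXN3 and KAZALD1. TLX1 and LBX1 have no protein-coding gene between them. Peaks were not assigned to these neighbours.

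RING1A and mouse uH2A often coincided. Of 33 RING1A peaks, 15 (45.5%, 28.1 to 63.6) lay on a uH2A mouse peak, against 27.1% in the list. In the other direction 13 of 30 uH2A mouse peaks (43.3%, 25.5 to 62.6) lay on RING1A, against 43.95%. The tallest RING1A peak of the stretch, from 102747001 to 102747200, had a height of 91.4. It belonged to a site of RING1A and both uH2A antibodies from 102746526 to 102747200. The tallest uH2A mouse peak, from 102672726 to 102673025, had a height of 53.0 and also met RING1A. At 102791226 to 102791625 EED, RING1A and both uH2A antibodies formed 1 joined site without H3K27me3, with heights of 29.4, 81.2, 42.1 (mouse) and 27.2 (rabbit). The EED and uH2A rabbit peaks there abutted but shared no base, and both overlapped the RING1A and uH2A mouse peaks.

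Rabbit uH2A had 15 of its 36 control peaks on H3K27me3 (41.7%, 25.5 to 59.2), against 10.1% in the list. The numbers were 6 of 33 for RING1A (18.2%, list 6.28%), 5 of 30 for uH2A mouse (16.7%, list 4.94%) and 1 of 8 for EED (12.5%, list 5.40%). The intervals of these 4 antibodies overlap, and that of EED includes its list's share. The stretch was selected with its H3K27me3 known, so these shares describe it only. In the reverse direction, of 136 H3K27me3 peaks, 17 (12.5%, 7.45 to 19.3) met a peak of any other antibody, against 16.1% in the list. Among those of 1 kb or more it was 8 of 20 (40.0%, 19.1 to 63.9), against 58.0%. By single antibody, BMI1 met 1 of 136 (0.735%, list 5.83%) and RING1B 0 of 136 (list 3.61%). With 1 BMI1 and 0 RING1B control peaks in the stretch, these low shares were set by those numbers. They are no result about overlap with H3K27me3. The intervals for EED, RING1A and both uH2A antibodies included the list's share.

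Joining overlapping control peaks gave 191 sites, of which 161 had 1 antibody, 21 had 2, 6 had 3, 2 had 4 and 1 had 6. Such sites were not counted over the whole lists, so these numbers describe the stretch only. They do not show whether shared sites are more or less common here than elsewhere. Of the 9 sites with at least 3, 6 included H3K27me3. The 3 without it all lay between PAX2 and TLX1. In knockdown cells there were 13 sites, each with 1 antibody, and 1 of the 9 control sites with at least 3 antibodies still held a peak, the one left of LBX1.

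Rabbit uH2A had 12 of the 13 knockdown peaks of the stretch. Its 12 knockdown peaks were 0.333 times the number of its 36 control peaks (exact conditional interval 0.158 to 0.656), where the whole list gave 0.418. Of the control peaks 10 were kept (27.8%, 14.2 to 45.2), against 28.8% in the list, so the share is near that of the list. For the uH2A mouse antibody the ratio was 0.0333 (0.000817 to 0.201) here and 0.211 in the list. That interval ends just below the list's value, but it counts neighbouring peaks as independent. Joining uH2A mouse peaks within 1000 bp left 20 control and 1 knockdown peak, and the interval was not recomputed for these. The interval of the share kept by the uH2A mouse antibody includes that of its list. Rabbit control peaks at least as tall as the list's median were kept in 9 of 21 cases, and shorter ones in 1 of 15. In the list these shares were 46.8% and 10.7%. The 10 kept peaks had control heights from 28.2 to 112.5 with a median of 45.1, and the 26 lost ones from 27.2 to 66.3 with a median of 34.8, so the 2 classes overlap widely.

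Of the 10 kept peaks, 5 stood on control H3K27me3 peaks that were themselves lost, out of 15 such uH2A peaks (33.3%, 11.8 to 61.6), against 32.3% of 2741 in the list. The other 5 stood elsewhere, out of 21 (23.8%, 8.22 to 47.2), against 28.4% of 24336. Left of PAX2, knockdown peaks were kept at 102415601 to 102415875, 102428576 to 102428675 and 102430201 to 102430350. Their heights were 44.0, 30.2 and 32.3, where the control peaks had 42.0, 28.2 and 36.3. Inside the PAX2 gap the knockdown peak from 102567201 to 102567550 had 39.1 against 54.1, and right of the gene the peak from 102637451 to 102637525 had 29.5 against 41.3. Between PAX2 and TLX1, the peak from 102774376 to 102774600 had 40.2 against 48.2, and that from 102832551 to 102832750 had 34.5 against 48.5. Right of LBX1 the peak from 103009326 to 103009425 had 31.1 against 38.1. With the peaks near TLX1 and LBX1 given above, 8 of 10 were lower in knockdown cells. These heights are not scaled between the libraries. Divided by the medians of their lists, 36.3 and 35.3, 8 of 10 were lower as well. How many kept peaks were lower over the whole list was not computed. The 8 of 10 is therefore not shown to be particular to the stretch. The peak beside TLX1 moved most, from 3.10 to 1.12 times the median.

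Of the 8 EED control peaks, 4 shared bases with a uH2A rabbit control peak (interval 15.7 to 84.3%), against 50.7% in the EED list. They lay at 102567276 to 102567350 in the PAX2 gap, at 102832526 to 102832675 between PAX2 and TLX1, and on either side of LBX1 at 102977326 to 102977550 and 103009326 to 103009400. In that order the EED peaks had heights of 26.2, 36.9, 41.2 and 27.4, against a median of 32.4 in the EED control list. The first and the last were below that median and 75 bp long. EED was lost at all 4 places, and the uH2A rabbit peak was kept at all 4 (interval 39.8 to 100%). A further uH2A rabbit control peak, from 102791426 to 102791500, abutted the EED peak from 102791501 to 102791625 without a shared base. That uH2A peak was lost and is counted among those without EED. Of the 32 uH2A rabbit peaks without EED, 6 were kept (18.75%, 7.21 to 36.4). In the whole list 56.1% of 6268 peaks with EED and 20.6% of 20809 without it were kept. The 4 uH2A rabbit peaks with EED were all at least as tall as the median of the uH2A rabbit list. Among such tall uH2A rabbit peaks without EED 5 of 17 were kept (29.4%, 10.3 to 56.0). In the whole list the shares kept among peaks of that height were 68.2% of 4696 with EED and 35.5% of 8907 without it, and both lie within the intervals here. This split was chosen after the values were seen.

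**Figure D4:**
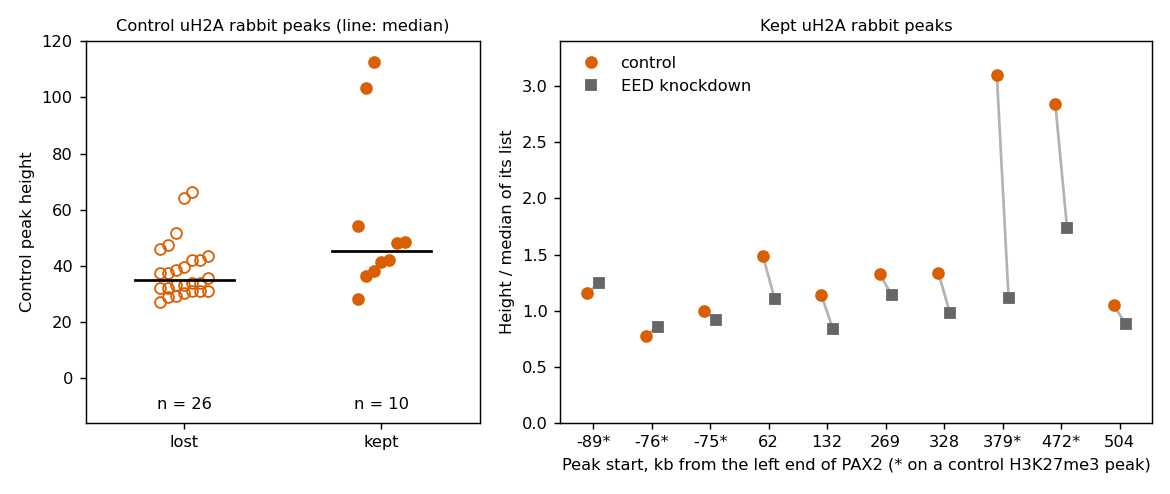
The left panel plots the control height of each lost and kept uH2A rabbit peak, with the median as a line (34.8 and 45.1). The right panel gives each of the 10 kept peaks by its position in kb from the left end of PAX2, with its height divided by the list's median in control (circles) and knockdown cells (squares). A star marks peaks on control H3K27me3. The peak beside TLX1 goes from 3.10 to 1.12.

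A knockdown peak was called new when it shared no base with a control peak of its antibody. Among the 12 uH2A rabbit knockdown peaks, 2 were new, against 30.2% of the list. They ran from 102442376 to 102442575, with a height of 44.2, and from 102866251 to 102866400, with a height 0.849 times the median of the list. The first lay on a control H3K27me3 peak left of PAX2, and the second in the TLX1 block away from H3K27me3. In all, 6 of the 12 uH2A rabbit knockdown peaks lay where control cells had an H3K27me3 peak (interval 21.1 to 78.9%), against 9.23% of all 11327 in the list. The control peaks of that antibody were likewise on H3K27me3 more often here than in their list, as given above. The single uH2A mouse knockdown peak, from 102673001 to 102673125, was not new, against 47.1% new in its list. It had a height of 34.3 and shared 25 bp with the tallest control uH2A mouse peak of the stretch. The other lost uH2A mouse peaks stood at least 35.6 kb from it or any other knockdown peak of that antibody.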

How the data were processed

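Peak lists of 14 libraries, 7 antibodies in control and in EED knockdown DU145 cells, were used as deposited. Per the labels' protocols, libraries were made from 10 to 20 ng of immunoprecipitated DNA. The submitters' processing notes name Bowtie and the build hg19, and the names of the lists name HPeak as the caller. For versions, settings and any input library: not given in the sources used here. Each list has 7 columns without a header, and the peak signal used here is the height column of the authors' caller, identified by its position and values. Peaks were called per library.

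Computations used Python 3.11.15, numpy 2.4.6, pandas 2.3.3, scipy 1.17.1 and, for figures, matplotlib 3.10.9. Overlap meant at least 1 bp in common. Shares carry Clopper-Pearson and ratios exact conditional intervals. The overlap and joining steps were tested on simulated lists. No test between conditions was possible with 1 library per group. Named peaks are the tallest control peak of each antibody, every knockdown peak, the 5 longest H3K27me3 domains and sites of 4 or more antibodies, with others described beside them. The genes, the stretch and these rules were chosen with earlier results of these data known. Alternatives were another height threshold, joining distance, overlap, flank and width of the stretch. Promoter sequences are RefSeq's for GRCh38.p14, and peaks were not assigned to gene parts because no hg19 annotation was used.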

Additional observations from a re-analysis of the deposited data

How the results depend on the processing

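Of 90 recomputed values, 40 could not have moved, being zeros that a filter or merge cannot raise or a filter that removed nothing. Of the other 50, 38 stayed within 1.5 times the reported count or length, or within its interval for a share, and 12 did not. Keeping peaks that reach the median height of their antibody's control list, the numbers in the stretch were 3 for EED, 21 for uH2A rabbit, 12 for uH2A mouse and 17 for RING1A in control cells, and 6 for uH2A rabbit and 0 for uH2A mouse in knockdown cells. Joining peaks within 1000 bp left 21 RING1A and 26 H3K27me3 control peaks. The share of uH2A mouse control peaks kept was 0% with at least 50% of the peak covered, and 0% with the height threshold. That threshold was the control list's median, 37.1 for uH2A mouse, applied to unscaled knockdown heights. The single uH2A mouse knockdown peak, of height 34.3, was below it but above its own list's median of 33.9. The number of H3K27me3 domains was 26 with gaps of at most 1000 bp and 9 with gaps of at most 10000 bp. Widening the stretch by 50 kb on each side, the one alternative that could raise these numbers, left H3K27me3, EED, RING1A and BMI1 with 0 knockdown peaks. No paired analysis was possible because each group has 1 library and the labels carry no replicate numbers. Depth is unknown, and an unlisted peak is not shown to be absent signal.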
